A study of Mus musculus with 2 samples.

Results

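Genes that set the activity of Ras were followed in cortical progenitors after knockdown of Phf6, a chromatin-associated PHD finger protein. They are 6 guanine nucleotide exchange factors (Rasgrf1, Rasgrf2, Rasgrp1, Rasgrp2, Sos1 and Sos2) and 3 GTPase activators (Rasa1, Nf1 and Rasal2), 9 of the 47643 genes in the count files. The set was chosen by the read counts themselves, for the higher count of Rasgrf1 in the siPhf6 library, so all values of siPhf6 against siCtl below are a description and carry no test. All 9 genes were found in both files, and all 9 reached 150 reads in one library or both, the filter that left 10130 genes.

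The cells came from the cortex of wild-type E14 mouse embryos, with the sex given as male. They were electroporated with a pool of Phf6 siRNAs (siPhf6) or with non-targeting control siRNA (siCtl) and cultured for 5 days, and their mRNA was sequenced. A single library of counts was analysed per group, with 10561757 reads in genes for siPhf6 and 12155311 for siCtl. The methods describe n = 3 independent samples per condition, and whether each count file holds one of these or a pool is not stated. With 1 count file per group there is no spread between cultures, each comparison is of these 2 libraries, and the 95% intervals cover counting error only. The knockdown is transient and lowers Phf6 without removing it. Phf6 itself had 310 reads in the siPhf6 library and 1420 in the siCtl library, a log2 ratio of -1.99 (95% counting interval -2.17 to -1.81). Although the label is cortical progenitors, transcripts of postmitotic neurons were abundant. The 12 neuronal markers listed, such as the microtubule proteins Map2 and Dcx, summed to 3721 reads per 1000000 gene reads (RPM) in siPhf6 and 3631 RPM in siCtl, while 10 genes of dividing cells summed to 105 RPM in siPhf6 and 65.2 RPM in siCtl.

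Ras is a small GTPase that is active when it holds GTP. Exchange factors make it release GDP so that GTP can bind, and GTPase activators speed up the hydrolysis that switches it off. The exchange factors differ in what turns them on: Rasgrf proteins respond to calcium through calmodulin, Rasgrp proteins to diacylglycerol and calcium, and Sos proteins are brought to receptor tyrosine kinases by the adaptor Grb2. Rasgrf1 is also an imprinted gene, expressed mainly from the paternal allele in mouse brain.

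Rasgrf1 and Rasgrf2 are paralogues that differed in opposite directions, so the promoter windows of both are shown. They are RefSeq windows on GRCm38.p6 (the assembly of mm10), from 250 bases before to 50 bases after the annotated start, read 5′ to 3′ on the strand of the gene. Capitals mark the letters TGACG or their reverse complement CGTCA, the half-site of the cAMP response element. The Rasgrf1 window lies at chr9:89909525-89909824 on the plus strand and the Rasgrf2 window at chr13:92131779-92132078 on the minus strand.
Rasgrf1: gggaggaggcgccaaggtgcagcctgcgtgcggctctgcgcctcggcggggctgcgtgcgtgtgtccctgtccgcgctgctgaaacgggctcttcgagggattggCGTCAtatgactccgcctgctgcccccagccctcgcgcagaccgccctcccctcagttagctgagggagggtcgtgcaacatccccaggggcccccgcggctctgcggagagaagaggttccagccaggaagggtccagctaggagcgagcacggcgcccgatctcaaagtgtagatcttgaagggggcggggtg
Rasgrf2: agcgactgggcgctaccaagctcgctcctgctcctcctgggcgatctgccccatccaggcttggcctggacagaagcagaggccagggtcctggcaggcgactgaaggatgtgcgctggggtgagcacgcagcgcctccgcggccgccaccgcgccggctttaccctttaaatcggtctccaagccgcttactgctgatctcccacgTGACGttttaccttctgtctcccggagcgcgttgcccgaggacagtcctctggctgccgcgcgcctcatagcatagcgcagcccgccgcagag
Each window holds this half-site once, Rasgrf1 as CGTCA and Rasgrf2 as TGACG. The windows of the other 7 members hold none on either strand, and 20.8% of all 32851 windows in the table hold at least 1. A CACACACA run, searched on both strands because the study describes CA repeats at PHF6 sites, was in none of the 10 windows of the 9 members (Rasgrp2 has 2 annotated starts) and in 4.09% of all windows. The GC box GGGCGG, also searched on both strands, was present 2 times in the Rasgrf1 window and not in that of Rasgrf2, and 35.7% of all windows hold it. It was also present for Rasgrp1, Rasgrp2 (both windows), Sos2, Rasa1 and Nf1, and absent for Sos1 and Rasal2. The searched motifs share no overlapping letters in either printed window. Such matches are a description of the letters and not evidence of binding.

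Rasgrf1 (ENSMUSG00000032356, chromosome 9 from 89909908 to 90026977, plus strand) had 528 reads in the siPhf6 library and 202 in the siCtl library. This is 50 RPM (95% counting interval 45.8 to 54.4) in siPhf6 and 16.6 RPM (14.4 to 19.1) in siCtl. The level was 3.0 times that of siCtl, a log2 ratio of 1.58 (1.35 to 1.83). A gene is called higher or lower here when its ratio passes 1.5-fold, which is a log2 ratio of 0.58 in either direction. By this rule Rasgrf1 was the only one of the 9 members called, against 4.18% of the 10130 kept genes called higher and 3.23% called lower. It also passed 2-fold, as 1.06% of kept genes did upwards. Only 18 kept genes had a larger log2 ratio than Rasgrf1, which is the value the set was chosen for. No other annotated gene shares exon bases with it.

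Rasgrf2, the second calcium-responsive exchange factor (ENSMUSG00000021708, chromosome 13 from 91880400 to 92131656, minus strand), had 898 reads in siPhf6 and 1507 in siCtl. Its level was 85.0 RPM in siPhf6 and 124 RPM in siCtl, a log2 ratio of -0.54 (-0.66 to -0.42). This is just short of the 1.5-fold limit, and 4.03% of kept genes had a smaller log2 ratio. Rasgrf2 still had more reads than Rasgrf1 in both libraries. Within the pair, the share of reads that came from Rasgrf1 was 37.0% (exact Clopper-Pearson 95% interval 34.5 to 39.6) in siPhf6 and 11.8% (10.3 to 13.4) in siCtl. Such a share needs no scaling between the libraries. The log2 ratio of Rasgrf1 exceeded that of Rasgrf2 by 2.13 (1.87 to 2.40).

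Rasgrp1, an exchange factor that binds diacylglycerol and is best known from T cells, had 824 reads in siPhf6 and 668 in siCtl. Its level was 78.0 RPM in siPhf6 and 55 RPM in siCtl, a log2 ratio of 0.51 (0.36 to 0.65). Rasgrp2, which is known from platelets and acts mainly on Rap, had the fewest reads of the set, 137 in siPhf6 and 197 in siCtl. Its log2 ratio was -0.32 (-0.65 to 0.00), with an interval that reaches 0, and 2.14% of its exon bases lie under the antisense transcript Gm14965, whose reads this unstranded kit cannot tell apart. The share of Rasgrp1 in the reads of the pair was 85.7% (83.4 to 87.9) in siPhf6 and 77.2% (74.3 to 80.0) in siCtl. The log2 ratios of the pair differed by 0.83 (0.48 to 1.17). Markers of platelets, lymphocytes and erythroid cells summed to 3.12 RPM in siPhf6 and 3.13 RPM in siCtl over 9 genes, and the platelet gene Pf4 had 0 reads in both libraries.

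Sos1, the main exchange factor downstream of receptor tyrosine kinases, had 2091 reads in siPhf6 and 2629 in siCtl, with levels of 198 RPM in siPhf6 and 216 RPM in siCtl. It was the exchange factor with the most reads, and its log2 ratio of -0.13 (-0.21 to -0.04) was the smallest difference among the 6. Sos2, its close relative, had 1056 reads in siPhf6 and 850 in siCtl, or 100 RPM in siPhf6 and 69.9 RPM in siCtl, a log2 ratio of 0.52 (0.38 to 0.65). Sos2 made up 33.6% (31.9 to 35.2) of the reads of the pair in siPhf6 and 24.4% (23.0 to 25.9) in siCtl, and the log2 ratios differed by 0.64 (0.49 to 0.80). In each of the 3 pairs one gene thus had a positive and the other a negative log2 ratio. Of the 6 genes, Rasgrf1 alone passed 1.5-fold. At a lower limit of 0.32 on the log2 scale, which 11.2% of kept genes passed upwards and 10.7% downwards, Rasgrf1, Rasgrp1 and Sos2 were higher and Rasgrf2 was lower.

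**Figure D1:**
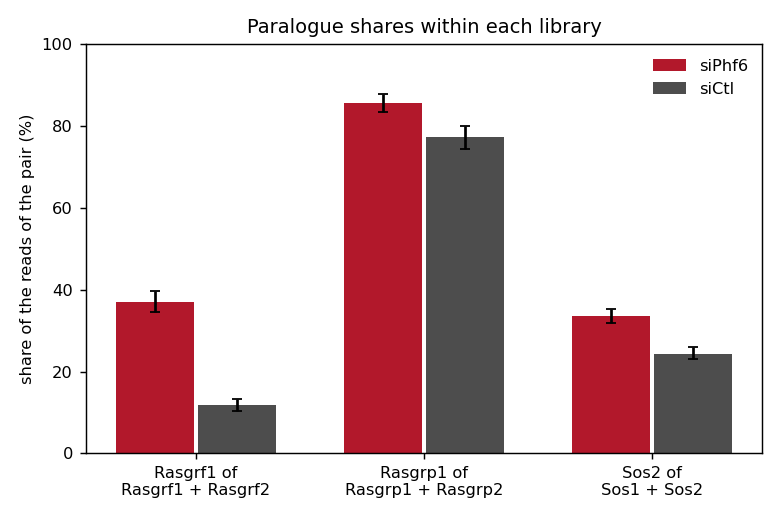
Share of the reads of each paralogue pair that came from the named gene (vertical axis, %), in the siPhf6 (red) and siCtl (grey) libraries, with exact 95% counting intervals as bars. The gene named is the one of each pair with the positive log2 ratio, so a larger share in siPhf6 follows from this choice. The share of Rasgrf1 was 37.0% in siPhf6 and 11.8% in siCtl. That of Rasgrp1 was 85.7% in siPhf6 and 77.2% in siCtl, and that of Sos2 33.6% in siPhf6 and 24.4% in siCtl.

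The 3 GTPase activators differed less between the libraries than most exchange factors did. Nf1, which encodes neurofibromin, the tumour suppressor lost in neurofibromatosis, had 3520 reads in siPhf6 and 4226 in siCtl, or 333 RPM in siPhf6 and 348 RPM in siCtl. Its log2 ratio was -0.06 (-0.13 to 0.00). Rasa1, a GTPase activator recruited to phosphorylated receptors, had 2793 reads in siPhf6 and 2824 in siCtl, with a log2 ratio of 0.19 (0.11 to 0.26). Rasal2, another activator of Ras hydrolysis, had 1519 reads in siPhf6, 1459 in siCtl and a log2 ratio of 0.26 (0.16 to 0.37). None of the 3 passed 1.5-fold or the lower limit. Rasal2 shares 1.78% of its exon bases with the pseudogene 2810025M15Rik on the other strand (312 reads in siPhf6 and 239 in siCtl), and Rasa1 shares 0.164% with Ccnh.

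**Figure D2:**
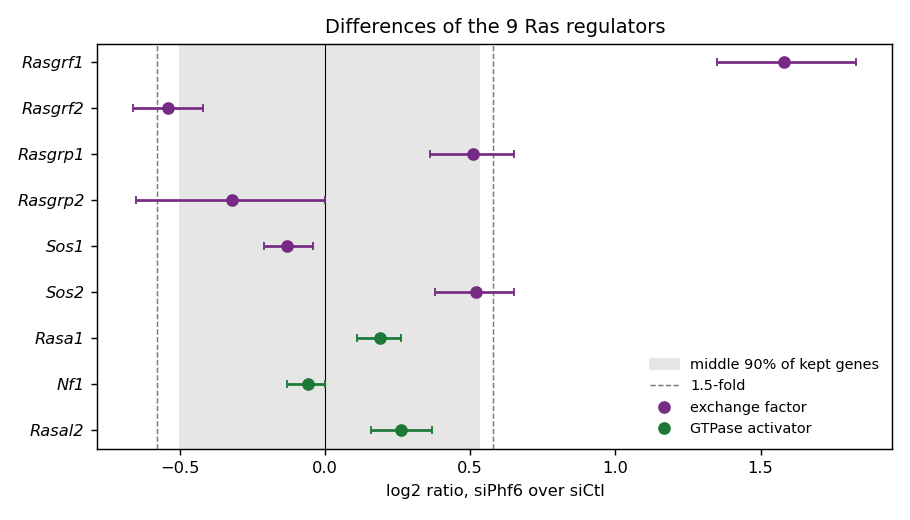
Horizontal axis, log2 ratio (siPhf6 over siCtl) for the 6 exchange factors (purple) and 3 GTPase activators (green), with 95% counting intervals as bars. The grey band holds the middle 90% of the 10130 kept genes (-0.50 to 0.53) and the dashed lines mark 1.5-fold; Rasgrf1 at 1.58 is the one member past a dashed line, and the activators lie between -0.06 and 0.26.

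Set against each other, the exchange factors spread over a range of log2 ratios of 2.13, from -0.54 for Rasgrf2 to 1.58 for Rasgrf1, and the GTPase activators over 0.32. The medians were the same, 0.19 for the 6 exchange factors and 0.19 for the 3 activators, where the median of all kept genes was 0.01. The wider range of the exchange factors has Rasgrf1, the gene the set was chosen for, at its upper end. Without Rasgrf1 the range of the 5 exchange factors was 1.06 and their median was -0.13. These ranges are over unequal numbers of genes. In sum, the exchange factors had 5534 reads (524 RPM) in siPhf6 and 6053 reads (498 RPM) in siCtl. The activators had 7832 reads (742 RPM) in siPhf6 and 8509 reads (700 RPM) in siCtl. Per read of an activator there were 0.707 reads of an exchange factor in siPhf6 and 0.711 in siCtl, a log2 difference of -0.01 (95% interval -0.08 to 0.06, from a normal approximation to the log ratio). Rasgrf1 was a minor part of this sum, 9.54% (8.78 to 10.3) of exchange factor reads in siPhf6 and 3.34% (2.90 to 3.82) in siCtl. With Rasgrf1 left out the ratio was 0.639 in siPhf6 and 0.688 in siCtl, a log2 difference of -0.11 (-0.18 to -0.04). With Sos1 left out instead it was 0.440 in siPhf6 and 0.402 in siCtl, a log2 difference of 0.13 (0.05 to 0.21). The share of Rasgrf2 in exchange factor reads was 16.2% in siPhf6 and 24.9% in siCtl, and that of Sos1 37.8% in siPhf6 and 43.4% in siCtl. These sums count reads, not exchange activity.

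Levels can be compared between genes only per length of transcript, so each RPM value was divided by the length of annotated exon in kilobases (RPKM). Exon length is the union of all GENCODE transcripts, which lowers the RPKM of genes with long retained introns in the annotation. For Rasgrp2 this union is 12384 bases in a gene from 6399340 to 6415216, so its place below depends on that annotation. Rasa1 stood first in both libraries, at 36.1 RPKM in siPhf6 and 31.7 RPKM in siCtl, ahead of Nf1 (21.0 in siPhf6 and 21.9 in siCtl) and Sos1 (18.7 in siPhf6 and 20.4 in siCtl). Rasgrf2 was the fourth in siCtl at 13.4 RPKM (12.8 to 14.1) and the seventh in siPhf6 at 9.20 RPKM (8.61 to 9.83). Rasgrf1 was the eighth in both libraries, at 4.52 RPKM (4.14 to 4.92) in siPhf6 and 1.5 RPKM (1.30 to 1.72) in siCtl. Its level overlapped in counting error with that of Rasgrp2, the last, in siCtl (1.31 RPKM, 1.13 to 1.5) but not in siPhf6 (1.05 RPKM, 0.879 to 1.24). Rasgrp1 (13.9 in siPhf6 and 9.81 in siCtl), Sos2 (11.7 in siPhf6 and 8.21 in siCtl) and Rasal2 (10.5 in siPhf6 and 8.74 in siCtl) lay between these. In siPhf6 the lower bound of Sos2 and the upper bound of Rasal2 were both 11.0 RPKM after rounding. In siCtl the intervals of Rasgrp1 and Rasal2 overlapped, as did those of Rasal2 and Sos2.

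**Figure D3:**
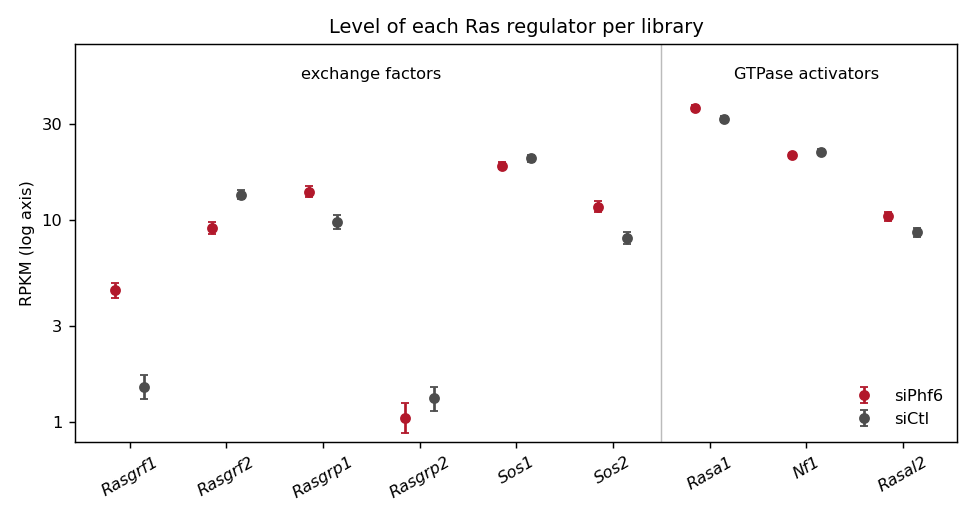
Level of each gene in RPKM (vertical axis, log scale) in the siPhf6 (red) and siCtl (grey) libraries, with 95% counting intervals as bars. Rasgrf1 shows the widest gap between the libraries, 4.52 RPKM in siPhf6 and 1.5 RPKM in siCtl, while Rasa1 is the highest in both, at 36.1 RPKM in siPhf6 and 31.7 RPKM in siCtl.

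One of the genes nearest to Rasgrf1 in log2 ratio was also its neighbour on the chromosome. With 2 libraries the pattern of a gene is its single log2 ratio, and the 3 kept genes closest to Rasgrf1 by this measure were Dkk2, a secreted modulator of Wnt signalling (203 reads in siPhf6 and 77 in siCtl, log2 ratio 1.59), Ankrd34c (1.57) and Gm37824 (152 reads in siPhf6 and 57 in siCtl, 1.60). Dkk2 and Gm37824 passed the filter through siPhf6 alone. Ankrd34c, which encodes an ankyrin repeat protein, is the nearest protein-coding gene before Rasgrf1 on chromosome 9 (89725245 to 89738475, minus strand). The genes point away from each other, and their starts lie 171.4 kb apart. Ankrd34c had 501 reads in siPhf6 and 193 in siCtl, close to the 528 in siPhf6 and 202 in siCtl of Rasgrf1, and a log2 ratio of 1.57 (1.34 to 1.83). The 2 genes overlap nowhere in the annotation, so no exon reads are shared by position.

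The other genes around Rasgrf1 did not show this difference. Within 1 Mb, a window chosen after these values were seen, 5 other genes were kept and Ankrd34c was the only one past 1.5-fold. Of all kept genes, 4.18% were called higher and 3.23% lower. Tmed3, which lies beyond Ankrd34c, had 515 reads in siPhf6 and 603 in siCtl (log2 ratio -0.02, -0.20 to 0.15). Morf4l1, the nearest kept gene on the other side, had 317 reads in siPhf6 and 409 in siCtl (-0.16, -0.38 to 0.05). Minar1 and Tbc1d2b, further out, stood at -0.48 (-0.68 to -0.29) and -0.43 (-0.65 to -0.22), lower in siPhf6 but short of 1.5-fold. Ctsh, the nearest protein-coding gene after Rasgrf1, had 7 reads in siPhf6 and 4 in siCtl, too few for a comparison. The transcripts annotated closest on either side, 4930524O08Rik and Gm23759, had at most 1 read in either library. Across all 9 members, 18 neighbouring protein-coding genes were kept, 1 on either side of each, and Ankrd34c was the only one called. A count of 1 in 18 is near the share of all kept genes called.

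**Figure D4:**
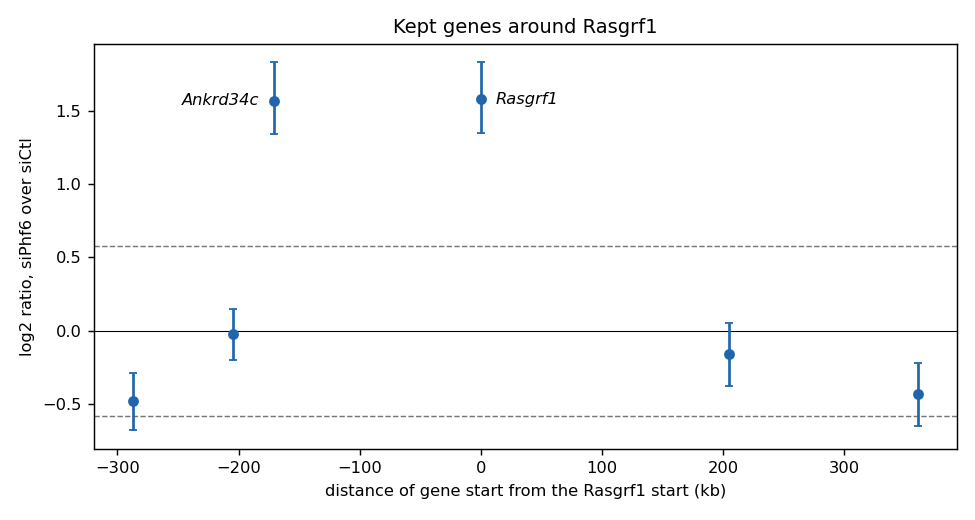
Vertical axis, log2 ratio (siPhf6 over siCtl) of the 6 kept genes within 1 Mb of Rasgrf1, by the distance of their start from the Rasgrf1 start in kb (horizontal axis), with 95% counting intervals. Rasgrf1 (1.58) and Ankrd34c (1.57, 171.4 kb away) stand above the dashed 1.5-fold line, and the other 4 lie between -0.48 and -0.02.

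Several lists of cell type markers also differed between the libraries. For radial glia, 3 of 6 kept markers were called higher and none lower, beside 4.18% and 3.23% of all kept genes, and the 11 listed genes summed to 819 RPM in siPhf6 and 553 in siCtl. Of the dividing-cell genes, 3 of 4 kept were called higher, with the summed levels given above. Of the astrocyte genes 2 of 6 kept were called higher, with a list median of 0.32 and sums of 530 RPM in siPhf6 and 384 RPM in siCtl. Of the oligodendrocyte lineage genes 2 of 3 kept were called higher, and the list summed to 103 RPM in siPhf6 and 82.8 RPM in siCtl. No gene of these 4 lists was called lower. None of the 12 neuronal markers and none of 9 glutamatergic markers was called, and the glutamatergic list summed to 1357 RPM in siPhf6 and 1438 in siCtl. Of the GABAergic markers 1 of 5 kept was called lower (-0.80) and none higher, with a list median of -0.26 and sums of 305 RPM in siPhf6 and 315 RPM in siCtl. Neither of the 2 kept intermediate progenitor markers was called, and that list summed to 191 RPM in siPhf6 and 155 RPM in siCtl, with Neurog1 at 0 in both. Microglial genes (6.25 RPM in siPhf6 and 5.10 in siCtl) and endothelial genes (7.86 RPM in siPhf6 and 6.58 in siCtl) were near 0, with C1qa and Cldn5 at 0 in both libraries. Of the mural and fibroblast genes 1 of 4 kept was called higher and 1 lower, and they summed to 102 RPM in siPhf6 and 93.0 RPM in siCtl. The part of such shifts in the value of Rasgrf1 was not tested. In bulk RNA, more cells of a type and more RNA per cell cannot be told apart. The astrocyte gene Aqp4 passed the filter through siPhf6 alone (155 reads in siPhf6 and 102 in siCtl, log2 ratio 0.80). The fibroblast gene Col1a1 did so too (154 reads in siPhf6 and 52 in siCtl, 1.75). The mural gene Acta2 passed through siCtl alone (89 reads in siPhf6 and 195 in siCtl, -0.92). Keeping genes by their higher count can raise the number called among kept markers. The summed levels include all listed genes, kept or not.

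Beyond the 9 members, 125 further genes of the pathway were listed, of which 106 were kept. Of these, 7 (6.60%) were called higher and 5 (4.72%) lower, beside 4.18% and 3.23% of all kept genes. The same shares of all kept genes are the background for each list below. Among 13 kept exchange factors of the same catalytic family that act on Ras, Rap or Ral, none was higher. Rasgef1c was the one called lower, with 154 reads in siPhf6 and 364 in siCtl (-1.03, -1.32 to -0.76), and the list median was -0.02. None of 4 other kept GTPase activators was called, Dab2ip being the lowest at -0.21 (list median -0.05).

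Among the Ras proteins that these regulators act on, Hras and Nras stayed within 1.5-fold. Hras had 940 reads in siPhf6 and 922 in siCtl (log2 ratio 0.23), and Nras had 1686 in siPhf6 and 2201 in siCtl (-0.18). Of 17 kept GTPases of the wider family, 1 was higher and 3 were lower, with a median of -0.06. Rit2, a GTPase of neurons, was higher with 378 reads in siPhf6 and 155 in siCtl (1.48, 1.22 to 1.77). Rap2c was lower with 413 reads in siPhf6 and 945 in siCtl (-0.99, -1.16 to -0.82), and Rras2 (-0.78) and Mras (-0.60) were lower too. These 4 are relatives of the classical Ras proteins.

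Upstream, 3 of 17 kept genes of calcium and diacylglycerol signalling were called higher and none lower (median 0.16). Of all kept genes, 4.18% were called higher and 3.23% lower. The 3 called genes are among the 7 kept diacylglycerol kinases of the list, a group set apart after the values were seen. These kinases consume the lipid that activates Rasgrp proteins, and the 4 others lay between -0.08 and 0.31. Dgkb had 552 reads in siPhf6 and 98 in siCtl (log2 ratio 2.68, 2.38 to 3.02), so it passed the filter through siPhf6 alone. Dgkk had 1665 reads in siPhf6 and 437 in siCtl (2.13, 1.98 to 2.29). Dgkg had 263 reads in siPhf6 and 175 in siCtl (0.79, 0.51 to 1.07). The NMDA receptor subunits were not called, with Grin1 at 0.12, Grin2a at 0.15 and Grin2b at -0.32. Among 14 kept adaptors that connect receptors with Sos, Shc4 was the one called, with 264 reads in siPhf6 and 163 in siCtl (0.90, 0.61 to 1.19), while Grb2 stood at 0.26 and the list median at 0.02.

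Downstream, 16 of 17 kept genes of the Raf, MEK and ERK cascade stayed within 1.5-fold (median 0.12), and the exception was Mras, already counted among the GTPases. Braf stood at -0.00 (-0.07 to 0.07). Of 15 kept genes that respond to ERK, 1 was higher, and the median was 0.14. The higher one was the cyclin gene Ccnd1, with 184 reads in siPhf6 and 104 in siCtl (1.02, 0.67 to 1.39). Ccnd1 passed the filter through the siPhf6 library alone. The feedback genes Dusp6 (0.03, -0.07 to 0.13) and Spry2 (0.22, 0.11 to 0.32) were not called, nor was Etv5 (0.14, 0.02 to 0.26). The highest of the uncalled kept genes were Egr1 (0.55, 0.46 to 0.64), Etv4 (0.51, 0.16 to 0.86) and Dusp5 (0.42, 0.22 to 0.62). The lowest was Fosl1 (-0.55, -0.93 to -0.18). Of the 16 listed genes, 14 had a larger RPM in siPhf6 than in siCtl. Among all kept genes, 51.8% had a larger log2 ratio than Braf, which stood at -0.00. The same count was 14 of 19 for calcium and diacylglycerol inputs, 12 of 18 for the cascade and 10 of 21 for GTPases. It was 9 of 18 for the other exchange factors and 5 of 7 for the other GTPase activators. Adaptors had 8 of 15, and partners of Nf1 and Rasa1 had 6 of 12. Of 10 kept partners of Nf1 and Rasa1 (median -0.12), Dlc1, which encodes a GTPase activator that binds Rasa1, was higher with 468 reads in siPhf6 and 266 in siCtl (1.02, 0.80 to 1.24). Ephb1 was lower (116 reads in siPhf6 and 216 in siCtl, -0.69). It is one of 4 Eph receptors in that list, all followed by the study on these cells and so no independent members. The other 3 were not called, with Epha4 at -0.34, Epha7 at -0.30 and Ephb2 at -0.11. The 6 partners that are no Eph receptors had a median of 0.14, a split made after the values were seen.

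**Figure D5:**
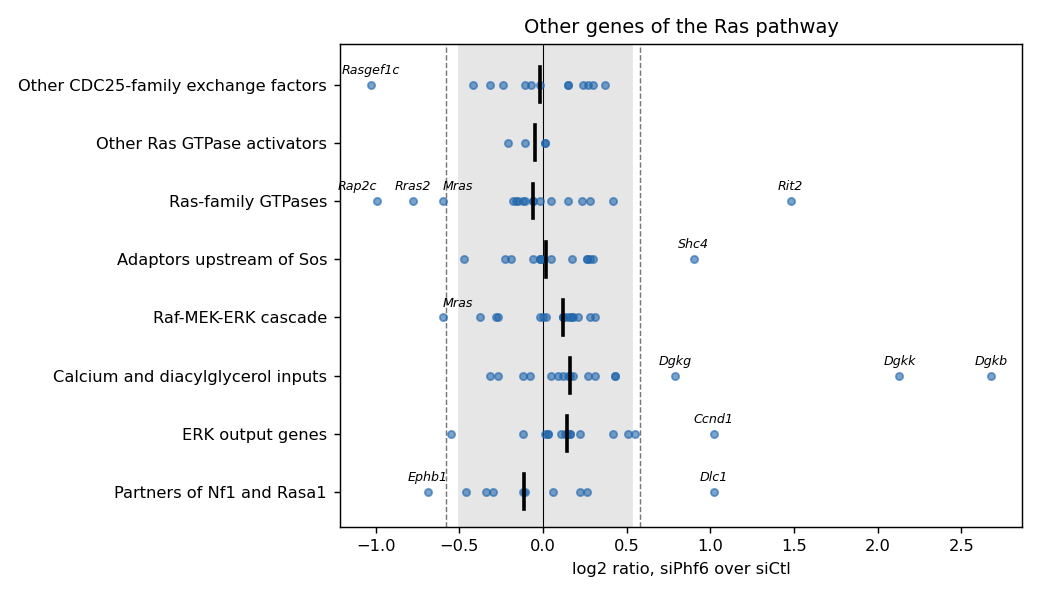
Horizontal axis, log2 ratio (siPhf6 over siCtl) of the kept genes of 8 further lists of the Ras pathway, one point per gene, with list medians as black bars, the middle 90% of kept genes in grey and 1.5-fold as dashed lines. Genes past 1.5-fold are named; Dgkb (2.68), Dgkk (2.13) and Rit2 (1.48) lie farthest to the right and Rasgef1c (-1.03) farthest to the left.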

How the data were processed

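To make the files, the authors aligned the mRNA-seq reads (HISAT2, mm10), took out duplicates (samtools) and assigned reads to genes of GENCODE M9 by HTSeq. The versions of these tools are not given in the sources used here. The submitters' processing notes name deepTools 3.5.1. The deposited values are whole counts of reads per gene, 1 library per group, and were used unchanged, while the methods give n = 3 samples per condition. Reads in no gene (24.1% for siPhf6 and 25.3% for siCtl) and ambiguous reads (2.04% for siPhf6 and 1.99% for siCtl) stayed out of the totals. Removal of duplicates caps the counts of abundant transcripts. The TruSeq RNA v2 kit does not mark strand.

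Genes with at least 150 reads in one library were kept, following the study. A gene short of 150 reads in the other library was thus kept through its higher count alone. After adding 1 read, counts were scaled by the total of gene reads and siPhf6 was divided by siCtl on the log2 scale. Intervals of single genes, sums and shares are exact (Clopper-Pearson or Poisson, 95%, scipy 1.17.1), and those of differences between log2 ratios and of the balance of reads are normal approximations to the log ratio. With 1 library per group no model could be fitted and no p-value is given. Names, positions and exon lengths come from GENCODE M21 on GRCm38 by gene ID, which matched 10114 of 10130 kept genes, and promoter windows from RefSeq for all 9 members. The script was tested on simulated data.

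The members and all lists were chosen with earlier results of these data known. Named genes are Phf6, the members, up to 4 called genes per pathway list with the largest ratios, the 3 genes closest to Rasgrf1 in log2 ratio, and its neighbours. Other genes named were chosen after their values were seen. Some listed or neighbouring genes are not reported here by name. Alternatives were scaling by TMM (edgeR 4.0.16), DESeq2 1.42.0 size factors or totals without mitochondrial and the 50 most abundant genes, 0.5 or 5 reads added, a filter of 10 reads or none, and a limit of 0.32 on the log2 scale or of 2-fold.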

Additional observations from a re-analysis of the deposited data

How the results depend on the processing

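The log2 ratios of the 9 members and the balance of reads between exchange factors and activators stayed within their counting intervals under every scaling, added count and filter tried, and the medians of both groups stayed at 0.18 or 0.19. Rasgrf1 ranged from 1.57 to 1.59 and Rasgrf2 from -0.55 to -0.54, and scaling by TMM or DESeq2 shifted all log2 ratios by 0.0092 in size. The counts of kept genes past the limit depended on filter and limit. Against 423 higher and 327 lower, they were 1639 and 1197 with a filter of 10 reads, 5784 and 4657 with none, 1131 and 1087 at a limit of 0.32 on the log2 scale, and 107 and 48 at 2-fold. Of the further pathway genes, 7 were higher and 5 lower. There were 13 higher with a filter of 10 reads, 14 with none and 14 at the limit of 0.32, and 11 were lower at that limit and 1 at 2-fold. The median of the partners of Nf1 and Rasa1 was -0.03 with a filter of 10 reads or none, against -0.12. A lower filter admits genes with few reads. No replicate could be left out, and no paired analysis was possible because each group has 1 library. For Rasgrp2, with 137 reads in siPhf6 and 197 in siCtl, depth limits the comparison.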

Other observations

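Genes of the Ras pathway below the filter of 150 reads were left out of the main counts. Of the 125 listed genes 19 were below it, and those with the widest gaps, chosen after their values were seen, had few reads. The exchange factor Rasgrp4 had 41 reads in siPhf6 and 15 in siCtl (log2 ratio 1.60, 95% counting interval 0.77 to 2.61). The GTPase activator Rasa4 had 57 reads in siPhf6 and 26 in siCtl (1.31, 0.64 to 2.06). Rasd1, a Ras-related GTPase induced by glucocorticoids, had 30 reads in siPhf6 and 6 in siCtl (2.35, 1.24 to 4.08). Rasgrp3, known from endothelial cells and B cells, had 8 reads in siPhf6 and 11 in siCtl, and no difference was detectable at this depth.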
